A study of Homo sapiens with 3 samples.

Results

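Solute carriers are the membrane proteins that move sugars, amino acids, ions, metals, nucleotides and transmitters across membranes, and their gene symbols start with SLC and a family number. The set described here held the solute carrier genes that were expressed in stem-cell-derived islets, and 168 of 374 candidate symbols belonged to it. A gene was a member when it reached at least 10 CPM in at least 1 of the 3 libraries (CPM are a gene's UMIs, summed over kept cells and divided by the library's sum, on the usual counts-per-1000000 scale, and a UMI marks 1 captured RNA molecule). SLC18A1, SLC30A8, SLC2A1 and SLC2A2 were left out by name, and antisense transcripts by kind. Members were thus chosen by their measured level in CPM, and that they were expressed is no finding. Of the 168, 158 reached the minimum in all 3 libraries, 4 in 2 libraries and 6 in 1 library, and those last 6 were members through their highest library alone. Just inside lay SLC25A40 with a highest level of 10.1 CPM and SLC30A1 with 10.2 CPM, and just outside lay SLC46A3 with 9.96 CPM and SLC8A3 with 9.86 CPM. Of the 206 candidates under the minimum, 203 had at least 1 UMI. Members came from 42 families, and 5 of them (SLC4A1AP, SLC7A6OS, SLC9A3R1, SLC9A3R2 and SLC2A4RG) are named after a carrier without being one.

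The cells were islets that had been differentiated from the human embryonic stem cell line HUES8, an established line, and were sorted by magnetic beads with an antibody against CD49a, the integrin subunit that ITGA1 encodes. The CD49a-positive, CD49a-negative and unsorted cells were each left to aggregate for 7 days and then sequenced one cell at a time by the droplet method. Below, (positive), (negative) and (unsorted) after a value name these libraries. There was 1 library per group from 1 cell line and no replicate, so no test was made. Every interval is a 95% exact interval of counting error, and "higher" or "lower" means at least 1.5-fold on the log2 ratio with 10 CPM added to both sides, a rule of size that understates the change of low genes.

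The libraries held 4512 (CD49a-positive), 2566 (CD49a-negative) and 2811 (unsorted) barcodes, of which 2394 (positive), 1976 (negative) and 2256 (unsorted) were kept. Kept cells summed to 122372168 (positive), 84568295 (negative) and 110105407 UMIs (unsorted), and ITGA1 stood at 108 (positive), 33.2 (negative) and 66.2 CPM (unsorted). Between 1 and 2 kept barcodes were shared by any pair of libraries. Cells were clustered without the solute carrier genes, and clusters were named from marker lists. Beta-like cells, named from INS, IAPP and other markers, made up 57.1% (positive), 15.6% (negative) and 27.3% (unsorted) of kept cells. Enterochromaffin-like cells, which resemble the serotonin-making cells of the gut (TPH1, FEV), made up 4.26% (positive), 20.5% (negative) and 20.8% (unsorted), and alpha-like cells (GCG and other markers) made up 4.01% (positive), 12.4% (negative) and 9.44% (unsorted). The alpha-like share depended on the clustering. These cells numbered 96 (positive), 245 (negative) and 213 (unsorted) here, against 266 (positive), 608 (negative) and 529 (unsorted) in a coarser clustering (Leiden resolution 0.5). In the clustering used here, cells without a name made up 33.2% (positive), 47.7% (negative) and 39.6% (unsorted). They included a cluster of 458 cells led by SST, the somatostatin gene, and GHRL. Another, of 435 cells with few UMIs (280 positive, 57 negative and 98 unsorted), was led by IAPP and came nearest to the beta markers. Similar clusters led by IAPP were named beta-like at Leiden resolution 2 (406 cells) and with the solute carriers in the clustering (428 cells). The beta-like share thus depended on the clustering as well. Over all kept cells SST stood at 3115 (positive), 8103 (negative) and 5455 CPM (unsorted). Islet markers were present (13 of 14 beta and 10 of 10 alpha markers over the minimum), and 0 of 7 acinar, 0 of 7 mesenchymal and 0 of 6 pluripotency markers reached it. Also reaching it were 10 of 11 enterochromaffin, 4 of 6 delta, 3 of 6 PP or epsilon and 3 of 5 endocrine progenitor markers. Of the other lists, 5 of 6 neural, 4 of 8 duct, 3 of 8 proliferation, 2 of 7 hepatic or intestinal and 1 of 6 endothelial markers did. INS, the insulin gene, stood at 12709 (positive), 11104 (negative) and 13736 CPM (unsorted) in alpha-like cells, and whether free RNA, doublets or the cells' own transcripts gave these counts was not tested.

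Some carriers depend on gradients that ATPase pumps set up, others exchange one solute for another, and mitochondrial carriers link the matrix to the cytosol. In islets, carriers bring fuel and amino acids into the cell, fill hormone and transmitter vesicles, return calcium and protons to their resting levels and set chloride. Mature beta cells are known for low levels of SLC16A1, the lactate and pyruvate carrier, which reached 3.14 (positive), 2.83 (negative) and 2.64 CPM (unsorted) and was therefore no member.

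The first comparison asked which carriers differed between the sorted populations over all kept cells. Acid-base carriers stood at the top and a neuronal-type amino acid carrier relative and a GABA transporter at the bottom, while the set as a whole did not shift. Of the 168 members, 6 were higher in CD49a-positive than in CD49a-negative cells (3.57% of members), against 1.99% of all 10525 genes over the minimum. A further 3 members were lower (1.79%), against 2.33% of all genes. With each cell weighted equally, 2 members were higher, and with 50 CPM added in place of 10, 2 were higher and 0 lower. The median log2 ratio was -0.021 over members and -0.029 over all genes. In sums over all cells, fewer cells of a type and less RNA per cell cannot be told apart.

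The widest gap belonged to SLC9A9 (ENSG00000181804, GRCh38 chromosome 3, 143265222 to 143848531, minus strand), which encodes a sodium-proton exchanger of endosomes. It stood at 66.2 (positive, interval 64.8 to 67.7), 20.5 (negative, interval 19.6 to 21.5) and 36.1 CPM (unsorted, interval 35 to 37.2). The intervals of the 3 libraries did not overlap, and the positive library exceeded the negative 3.23-fold (3.07 to 3.40), a log2 ratio of 1.32 with 10 CPM added. SLC4A10 (ENSG00000144290, chromosome 2, 161424332 to 161985282, plus strand), a sodium-coupled bicarbonate transporter known from neurons, stood at 113 (positive), 55.8 (negative) and 78.1 CPM (unsorted). Its fold was 2.03 (1.96 to 2.10). SLC4A7, a second sodium bicarbonate cotransporter, stood at 68.2 (positive), 41 (negative) and 55 CPM (unsorted), a 1.66-fold difference (1.60 to 1.73) between the sorted ones. All 3 genes were highest in the positive and lowest in the negative library.

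The other members that were higher were a sugar-related carrier and a pair from the monocarboxylate family. SLC2A13 (chromosome 12, 39755021 to 40106089), the proton-coupled myo-inositol transporter, reached 170.1 (positive), 104 (negative) and 136 CPM (unsorted). SLC16A9 (chromosome 10, 59650761 to 59736002), a carnitine carrier, reached 93.8 (positive), 55.8 (negative) and 69.3 CPM (unsorted). SLC16A10 (chromosome 6, 111087503 to 111231194), which carries aromatic amino acids, reached 45.3 (positive), 25.7 (negative) and 33.5 CPM (unsorted). Folds between the positive and negative library were 1.64 for SLC2A13, 1.68 for SLC16A9 and 1.76 for SLC16A10, and in each the unsorted library lay between. A 2-fold rule with 10 CPM added kept 1 member on the high side, SLC9A9, against 0.399% of all genes.

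On the low side, SLC7A14 (ENSG00000013293, chromosome 3, 170459584 to 170586074, minus strand), a lysosomal relative of the cationic amino acid transporters, stood at 19.6 (positive, interval 18.8 to 20.4), 52.6 (negative, interval 51.1 to 54.2) and 38.4 CPM (unsorted, interval 37.3 to 39.6). The negative library was 2.69-fold above the positive one (2.56 to 2.82), and SLC7A14 was the 1 member lower under the 2-fold rule, against 0.399% of all genes. SLC6A11 (chromosome 3, 10816200 to 10940733, plus strand), a GABA transporter of the plasma membrane, stood at 1.80 (positive, 220 UMIs), 10.8 (negative, 916 UMIs) and 8.96 CPM (unsorted, 987 UMIs). It was a member through the negative library alone, so its level in the other libraries was under 10 CPM by the rule. SLC12A5 (chromosome 20, 46021690 to 46060152, plus strand), the potassium-chloride cotransporter that keeps chloride low in neurons, stood at 31.7 (positive), 59.1 (negative) and 46.6 CPM (unsorted). Its level in the negative library was 1.86-fold that in the positive one (1.79 to 1.94).

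**Figure D1:**
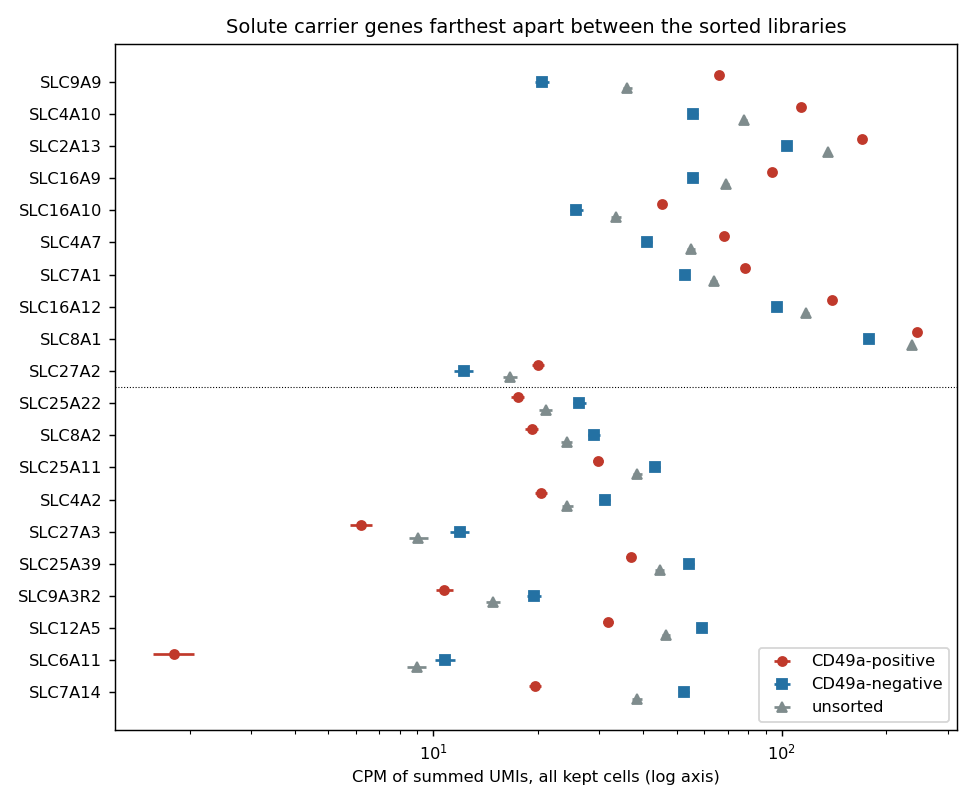
CPM over all kept cells (horizontal, log axis) of the 10 members with the highest (above the dotted line) and the 10 with the lowest log2 ratio of the positive over the negative library, 1 point per library with its 95% counting interval. In the upper rows the positive library lies to the right (SLC9A9 at 66.2 (positive) against 20.5 CPM (negative)), in the lower rows to the left (SLC7A14 at 19.6 (positive) against 52.6 CPM (negative)).

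The stretches of 250 bases before the RefSeq transcription start are shown for the 4 members farthest apart, 2 from each end, so that the starts of genes at opposite ends can be read side by side. They were read from RefSeq on GRCh38.p14, each in the direction of its gene, and 143 of 168 members had such an entry. Capitals mark any of 3 core promoter motifs on either strand, which did not overlap each other in these windows: the letters TATAAA for the TATA box, CCAAT for the box named after those letters, and GGGCGG for the GC box. The windows are chr3:143848469-143848718 (minus strand) for SLC9A9, chr2:161624166-161624415 (plus) for SLC4A10, chr3:170586076-170586325 (minus) for SLC7A14 and chr3:10815978-10816227 (plus) for SLC6A11.
SLC9A9: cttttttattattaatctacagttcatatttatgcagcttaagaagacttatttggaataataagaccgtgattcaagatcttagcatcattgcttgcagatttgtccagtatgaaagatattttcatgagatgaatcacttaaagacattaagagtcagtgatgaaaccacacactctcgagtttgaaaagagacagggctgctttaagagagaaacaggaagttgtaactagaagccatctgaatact
SLC4A10: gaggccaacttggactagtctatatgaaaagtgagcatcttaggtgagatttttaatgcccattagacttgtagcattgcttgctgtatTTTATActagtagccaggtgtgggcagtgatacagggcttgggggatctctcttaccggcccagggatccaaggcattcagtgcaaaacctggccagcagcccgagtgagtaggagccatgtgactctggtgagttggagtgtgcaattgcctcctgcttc
SLC7A14: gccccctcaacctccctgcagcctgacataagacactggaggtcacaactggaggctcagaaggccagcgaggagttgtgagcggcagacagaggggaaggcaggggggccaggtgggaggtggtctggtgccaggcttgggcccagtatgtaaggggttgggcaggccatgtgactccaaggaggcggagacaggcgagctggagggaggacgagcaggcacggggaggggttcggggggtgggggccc
SLC6A11: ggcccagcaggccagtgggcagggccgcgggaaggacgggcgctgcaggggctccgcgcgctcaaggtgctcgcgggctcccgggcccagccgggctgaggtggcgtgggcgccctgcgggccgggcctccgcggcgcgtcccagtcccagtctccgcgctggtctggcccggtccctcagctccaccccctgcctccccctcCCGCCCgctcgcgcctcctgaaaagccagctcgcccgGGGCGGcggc

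G and C made up 34% of the SLC9A9 window and 49.6% of the SLC4A10 window, against 66.8% in SLC7A14 and 80% in SLC6A11. This contrast did not extend to the other members called. Those higher in the positive library had 68.4% (SLC16A9), 70% (SLC2A13), 74.4% (SLC16A10) and 76% (SLC4A7), and SLC12A5, which was lower, had 65.6%. The median was 66% over the 143 members and 58% over all 35116 promoters. The members, with 1 entry each, were chosen by expression, whereas the 35116 entries were taken as listed, whatever the level of their gene. The 2 sets are thus unlike, here and for the motifs below, and no conclusion is drawn from their difference. The 6 letters TATAAA occurred in 10.7% of all promoters and in 6 of the 143 members, CCAAT in 32% and in 48 members, and GGGCGG in 42.6% and in 100 members. SLC4A10 held 1 TATA box, SLC6A11 held 2 GC boxes, and SLC9A9 and SLC7A14 held none of the 3 motifs. SLC4A10 starts in RefSeq inside the GENCODE gene span, so its window is that of 1 of its starts.

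Set against the unsorted library, both sorted libraries lay close to it. In the positive library 1 member was higher than in the unsorted one, SLC9A9 (log2 ratio 0.73), against 0.2% of all genes, and 2 were lower, SLC7A14 (-0.71) and SLC6A11 (-0.68), against 0.76% of all genes. In the negative library 0 members were higher than in the unsorted one, against 0.143% of all genes, and 1 was lower, SLC9A9 (-0.59), against 0.162%. These comparisons share the unsorted library. The unsorted level lay between the sorted levels for 117 of 168 members (69.6%), close to the 71.3% of all genes.

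The role groups hold 2 to 32 members, so single calls in them cannot be read against the 1.99% of all genes that were higher and the 2.33% that were lower. By role, the 23 transporters of sodium, protons, bicarbonate, chloride, calcium and phosphate held 3 of the 6 members that were higher (SLC9A9, SLC4A10, SLC4A7) and 1 of the 3 that were lower (SLC12A5), with a median log2 ratio of -0.03. The exchangers of calcium for sodium pointed both ways without passing the size rule. SLC8A1 stood at 245 (positive) and 178 CPM (negative) (log2 ratio 0.44), SLC8A2 at 19.1 (positive) and 28.9 CPM (negative) (-0.42), and SLC24A3, which also moves potassium, at 54.1 (positive) and 72.6 CPM (negative) (-0.37). Among the 6 monocarboxylate carriers the median was 0.32, with 2 higher and 0 lower. SLC16A12, which carries creatine, stood at 139.8 (positive) and 96.7 CPM (negative) (0.49), under the size rule, and SLC16A7, a lactate and pyruvate carrier, at 9.93 (positive) and 15.4 CPM (negative).

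The 32 mitochondrial carriers had 0 members higher, 0 lower and a median of 0.02. The ADP/ATP carriers, which export ATP from the matrix, stood at 263 (positive) and 338 CPM (negative) for SLC25A5, at 186 (positive) and 234 CPM (negative) for SLC25A6, and at 68.8 (positive) and 90.7 CPM (negative) for SLC25A4. These near-identical genes have many pseudogene copies, so how their reads were divided is uncertain. SLC25A11, the oxoglutarate carrier, stood at 29.7 (positive) and 43.4 CPM (negative) (-0.43), and SLC25A39, a glutathione carrier, at 36.9 (positive) and 54.3 CPM (negative) (-0.45). On the other side, SLC25A24, the ATP-magnesium/phosphate carrier, stood at 62.4 (positive) and 45.2 CPM (negative). SLC25A13, which exchanges aspartate for glutamate in the malate-aspartate shuttle, differed little, with 119 (positive) and 115 CPM (negative).

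The 20 amino acid and peptide carriers had 0 higher and 1 lower, SLC7A14, with a median of -0.03. SLC7A1, the main cationic amino acid transporter of many cells, stood at 78.6 (positive) and 52.8 CPM (negative) (0.49). SLC3A2, the heavy chain that pairs with SLC7A5 and SLC7A8, stood at 120.2 (positive) and 156 CPM (negative), while its partners stood at 19.6 (positive) and 20.1 CPM (negative) (SLC7A5) and 242 (positive) and 249 CPM (negative) (SLC7A8). The 20 metal carriers had 0 higher and 0 lower and a median of 0.08. SLC30A9, a zinc transporter, stood at 118 (positive) and 85.6 CPM (negative), SLC39A14, which takes up zinc, iron and manganese, at 54.5 (positive) and 48.6 CPM (negative), and SLC39A1, a zinc importer, at 23.8 (positive) and 33.7 CPM (negative).

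The 8 neurotransmitter carriers had 0 higher and 1 lower, SLC6A11, with a median of -0.08. SLC17A6, which loads glutamate into vesicles, stood at 48.2 (positive) and 38.1 CPM (negative). SLC18A2, the vesicular monoamine transporter, stood at 13.4 (positive) and 19.7 CPM (negative), and SLC6A4, the serotonin transporter, at 27.6 (positive) and 25.2 CPM (negative). The 22 members of family 35, named after nucleotide sugar transport in the Golgi, had 0 higher and 0 lower and a median of -0.01, and SLC35E2A and SLC35E2B within it are near-copies whose reads may be divided wrongly. The 10 carriers of sugars, inositol and related solutes had 1 higher, the myo-inositol transporter SLC2A13, and a median of -0.10. The remaining 27 members (lipid, vitamin, nucleoside, organic ion, other families and the 5 that are no carriers) had 0 higher and 0 lower, from SLC9A3R2, a scaffold protein, at 10.8 (positive) and 19.5 CPM (negative) to SLC27A2, a fatty acyl-CoA synthetase, at 19.9 (positive) and 12.2 CPM (negative). SLC7A6OS and SLC7A6 overlap on opposite strands, so their reads are uncertain as well.

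Other transport lists were set beside the 1.99% of all genes that were higher, the 2.33% that were lower and the median of -0.029 between the sorted libraries (positive over negative). Of 12 measured ion pumps of 16 listed, 0 were higher and 1 was lower (ATP1B2, a sodium pump subunit, 7.62 (positive) and 19.3 CPM (negative)), with a median log2 ratio of 0.06. Of 17 measured subunits of the vacuolar proton ATPase, which acidifies vesicles, 0 were higher and 1 was lower (ATP6V0B, 256 (positive) and 407 CPM (negative)), with a median of -0.27. Of 16 measured other mitochondrial transport proteins, 0 were higher and 2 were lower (SMDT1 at 138 (positive) and 228 CPM (negative), and UCP2 at 79.8 (positive) and 129 CPM (negative)), with a median of -0.23. ABC transporters (18 measured), SLCO anion transporters (2) and transporter partners (7) had 0 higher and 0 lower, and medians of -0.01, 0.29 and 0.03.

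The next comparison asked whether the differences were present inside a cell class. In beta-like cells 0 members were higher in CD49a-positive than in CD49a-negative ones, against 0.2% of all genes, and 0 were lower, against 0.247%. Member log2 ratios there ran from -0.44 (SLC24A3) to 0.31, and SLC9A9 stood at 82.4 (positive), 64.4 (negative) and 70.5 CPM (unsorted). SLC4A10, which was higher in the positive library over all cells, stood at 141 (positive), 168 (negative) and 154 CPM (unsorted).

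Beta-like cells fell into clusters 0 and 5, and the libraries used them unequally. Cluster 0 held 768 of 1367 positive, 113 of 308 negative and 321 of 617 unsorted beta-like cells. SLC4A10 stood at 103 (positive), 118 (negative) and 108 CPM (unsorted) in cluster 0, and at 195 (positive), 203 (negative) and 217 CPM (unsorted) in cluster 5. SLC4A7 likewise stood at 48.7 (positive), 42.8 (negative) and 45.9 CPM (unsorted) in cluster 0 and at 120.1 (positive), 105 (negative) and 123 CPM (unsorted) in cluster 5. For both bicarbonate transporters the gap between the clusters was thus wider than any gap between libraries inside a cluster. SLC9A9 stood at 86.6 (positive) and 71.5 CPM (negative) in cluster 0 and at 76.5 (positive) and 59.5 CPM (negative) in cluster 5.

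In enterochromaffin-like cells 6 members were higher in CD49a-positive than in CD49a-negative ones (SLC16A12, SLC35F4, SLC4A10, SLC4A7, SLC9A2 and SLC9A9), against 2.19% of all genes, and 3 were lower (SLC39A3, SLC6A11 and SLC7A14), against 2.03%. SLC9A9 stood at 25.4 (positive, 125 UMIs), 6.59 (negative, 98 UMIs) and 15.3 CPM (unsorted, 282 UMIs). SLC9A2, a plasma membrane sodium-proton exchanger, stood at 33.8 (positive), 14.7 (negative) and 19.5 CPM (unsorted), and SLC6A11 at 16.9 (positive), 39.9 (negative) and 39.7 CPM (unsorted). INS in these cells stood at 30447 (positive), 11548 (negative) and 17730 CPM (unsorted), and the sum of the 14 beta markers at 33638 (positive), 13380 (negative) and 20012 CPM (unsorted). The part of this beta-marker RNA in these differences was not tested.

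The size of these differences, and in cluster 6 the direction of some, varied between the 3 enterochromaffin-like clusters. In cluster 3, with 34 positive and 39 negative cells, 5 of the 6 higher and 3 of the 3 lower members passed the size rule, and INS stood at 39646 (positive) and 10738 CPM (negative). In cluster 9, the largest, with 56 positive and 234 negative cells, 0 of the 6 and 1 of the 3 (SLC6A11) did, but all 9 kept their direction there. In cluster 6, with 12 positive and 132 negative cells, 1 of the 6 (SLC9A2) and 0 of the 3 passed the rule in their direction. Log2 ratios there had the other sign for SLC35F4, SLC4A10 (-0.31), SLC4A7 (-0.04), SLC6A11 (0.62) and SLC7A14 (0.30). SLC39A3, a zinc importer, had log2 ratios of -0.61 in cluster 3, -0.52 in cluster 6 and -0.48 in cluster 9. SLC35F4 had 0.58 in cluster 3 and 0.45 in cluster 9, but -0.61 in cluster 6, on 4 UMIs (positive) and 108 UMIs (negative). SLC6A11 had -1.05 in cluster 3 and -0.84 in cluster 9, against -0.89 over the class. Of the 9 members SLC4A10 differed most between clusters 3 and 9, at 88.6 (positive) and 13.8 CPM (negative) in cluster 3, and 67.9 (positive) and 60.8 CPM (negative) in cluster 9. SLC6A11 stood at 10.5 (positive) and 26.9 CPM (negative) in cluster 9, but at 99 (positive) and 61 CPM (negative) in cluster 6, where the positive library had 12 cells.

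In alpha-like cells 1 member was higher in the positive library, SLC8A1, against 0.371% of all genes, and 0 were lower, against 0.171%. SLC8A1, the sodium-calcium exchanger of the plasma membrane, stood at 46.7 (positive, 191 UMIs), 25.7 (negative, 274 UMIs) and 36 CPM (unsorted), a 1.82-fold difference between the sorted ones (1.503 to 2.19). With a clustering at Leiden resolution 2 or one that used the solute carriers, with a wider cell filter, with 50 CPM added, or with each cell weighted equally, 0 members were higher. Over 96 positive and 245 negative alpha-like cells, SLC9A9 stood at 12.5 (positive) and 8.35 CPM (negative) and SLC7A14 at 54.6 (positive) and 51.6 CPM (negative).

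**Figure D2:**
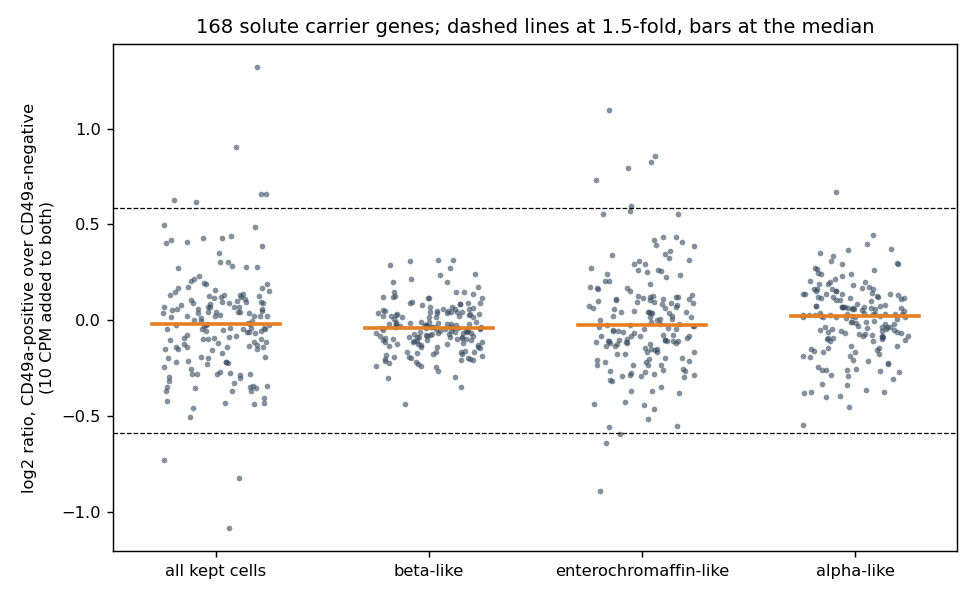
Log2 ratio between the sorted libraries (positive over negative, 10 CPM added, vertical axis) for the 168 members, first over all kept cells and then in each of the 3 classes, 1 point per gene, with bars at the median and dashed lines at 1.5-fold. In beta-like cells every point lies within the dashed lines, from -0.44 to 0.31.

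The next comparison set the classes against each other. Counting a member only where it passed 1.5-fold in the same direction in each of the 3 libraries, 21 members were higher in beta-like than in alpha-like cells (12.5% of members), against 8.91% of all genes, and 8 were lower (4.76%), against 3.84%. Enterochromaffin-like over alpha-like cells gave 20 higher (11.9%), against 11.6% of all genes, and 8 lower, against 3.82%. Beta-like over enterochromaffin-like cells gave 4 higher (2.38%), against 1.86%, and 5 lower (2.98%), against 3.28%. For the pair without alpha-like cells, 9 members in all were called, as many as between the sorted libraries inside enterochromaffin-like cells. The 3 libraries differ in their sort and are not replicates.

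SLC8A1 and SLC17A6 set both beta-like and enterochromaffin-like cells apart from alpha-like cells. SLC8A1 stood at 282 (positive), 296 (negative) and 277 CPM (unsorted) in beta-like cells, at 428 (positive), 410.4 (negative) and 502 CPM (unsorted) in enterochromaffin-like cells, and at 46.7 (positive), 25.7 (negative) and 36 CPM (unsorted) in alpha-like cells. SLC17A6 stood at 54.5 (positive), 59.4 (negative) and 57 CPM (unsorted) in beta-like, at 91.4 (positive), 96.9 (negative) and 88.2 CPM (unsorted) in enterochromaffin-like and at 1.71 (positive), 0.657 (negative) and 2.33 CPM (unsorted) in alpha-like cells. Alpha-like levels lay below every level of the other classes for both genes. Beta-like over alpha-like log2 ratios were 2.46 (positive), 2.70 (negative) and 2.44 (unsorted) for SLC17A6 and 2.36 (positive), 3.10 (negative) and 2.64 (unsorted) for SLC8A1.

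The acid-base carriers SLC4A10 and SLC9A9 were highest in beta-like cells. SLC4A10 stood at 141 (positive), 168 (negative) and 154 CPM (unsorted) in beta-like cells, at 71.5 (positive), 39 (negative) and 45.5 CPM (unsorted) in enterochromaffin-like and at 22 (positive), 19.1 (negative) and 14.5 CPM (unsorted) in alpha-like cells. SLC9A9 stood at 82.4 (positive), 64.4 (negative) and 70.5 CPM (unsorted) in beta-like, 25.4 (positive), 6.59 (negative) and 15.3 CPM (unsorted) in enterochromaffin-like and 12.5 (positive), 8.35 (negative) and 7.83 CPM (unsorted) in alpha-like cells. The lowest beta-like value of each gene lay above its highest value in the other classes. SLC2A13 did not separate beta-like cells (197 (positive), 206 (negative) and 198 CPM (unsorted)) from enterochromaffin-like cells (172 (positive), 125 (negative) and 150.3 CPM (unsorted)) in every library, but both lay above alpha-like cells (45.5 (positive), 39.6 (negative) and 39 CPM (unsorted)).

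SLC16A12 and SLC35F4 were lowest in enterochromaffin-like cells. SLC16A12 stood at 149 (positive), 118 (negative) and 140 CPM (unsorted) in beta-like cells, 66 (positive), 32 (negative) and 43.8 CPM (unsorted) in enterochromaffin-like cells and 143 (positive), 132 (negative) and 138 CPM (unsorted) in alpha-like cells. SLC35F4, a member of family 35 whose substrate is not established, stood at 80.2 (positive), 64.6 (negative) and 75.6 CPM (unsorted) in beta-like, 42.5 (positive), 20.3 (negative) and 24.8 CPM (unsorted) in enterochromaffin-like and 263 (positive), 202 (negative) and 224 CPM (unsorted) in alpha-like cells. In alpha-like cells SLC35F4 thus exceeded both other classes.

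The 5 members higher in enterochromaffin-like than in beta-like cells were SLC6A11, SLC38A1, SLC38A2, SLC49A4 and SLC7A14, and SLC7A14 was also high in alpha-like cells. SLC6A11 stood at 16.9 (positive), 39.9 (negative) and 39.7 CPM (unsorted) in them, against at most 1.03 CPM in beta-like and 2.82 CPM in alpha-like cells of any library. SLC38A1, a glutamine transporter of the plasma membrane, stood at 49.3 (positive), 60.8 (negative) and 53.3 CPM (unsorted) in enterochromaffin-like cells, against 18 (positive), 12.9 (negative) and 17.9 CPM (unsorted) in beta-like and 4.89 (positive), 6.94 (negative) and 4.34 CPM (unsorted) in alpha-like cells. Its relative SLC38A2 stood at 36.8 (positive), 46.2 (negative) and 41.4 CPM (unsorted) in enterochromaffin-like cells, against 16.1 (positive), 15.4 (negative) and 18.6 CPM (unsorted) in beta-like and 11.3 (positive), 10.9 (negative) and 9.52 CPM (unsorted) in alpha-like cells. SLC49A4, a lysosomal membrane carrier, reached 54.4 (positive), 59.5 (negative) and 64.6 CPM (unsorted) in enterochromaffin-like cells and at most 22.5 CPM in the other classes.

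Alpha-like cells held more RNA of the arginine transporter SLC7A2, while mitochondrial carriers went both ways. Passing 1.5-fold in all 3 libraries, 2 of the 32 were higher in alpha-like than in beta-like cells (SLC25A6 and SLC25A33) and 2 were lower (SLC25A29 and SLC25A37). Against enterochromaffin-like cells 4 were higher (SLC25A5, SLC25A6, SLC25A14 and SLC25A33) and 1 was lower (SLC25A37). SLC7A2 stood at 388 (positive), 369 (negative) and 377 CPM (unsorted) in alpha-like cells, against 190.1 (positive), 221 (negative) and 186 CPM (unsorted) in beta-like and 132 (positive), 86.5 (negative) and 86.8 CPM (unsorted) in enterochromaffin-like cells. SLC25A6 stood at 294 (positive), 340 (negative) and 295 CPM (unsorted) in alpha-like, 173 (positive), 167 (negative) and 172 CPM (unsorted) in beta-like and 147 (positive), 182 (negative) and 153 CPM (unsorted) in enterochromaffin-like cells. SLC25A33, a pyrimidine nucleotide carrier, stood at 82.5 (positive), 75.4 (negative) and 75.9 CPM (unsorted) in alpha-like cells and between 29.5 and 47.1 CPM in the other classes. SLC7A14 joined alpha-like cells (54.6 (positive), 51.6 (negative) and 52.5 CPM (unsorted)) with enterochromaffin-like cells (53.3 (positive), 88.5 (negative) and 75.6 CPM (unsorted)) and was low in beta-like cells (10.7 (positive), 12.5 (negative) and 11.8 CPM (unsorted)). SLC12A5 was lower in beta-like cells (25.6 (positive), 24.9 (negative) and 28.8 CPM (unsorted)) than in alpha-like cells (54.3 (positive), 69.6 (negative) and 73.4 CPM (unsorted)).

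The monoamine carriers SLC18A2 and SLC6A4 separated the classes less. SLC18A1, of the same family as SLC18A2, was left out by name, so this does not cover it. SLC18A2 stood at 12.1 (positive), 18 (negative) and 13.6 CPM (unsorted) in beta-like, 20 (positive), 25.2 (negative) and 28.2 CPM (unsorted) in enterochromaffin-like and 21 (positive), 20.8 (negative) and 15.2 CPM (unsorted) in alpha-like cells. SLC6A4 stood at 29.5 (positive), 37.4 (negative) and 31.9 CPM (unsorted) in beta-like, 20 (positive), 12.2 (negative) and 16.2 CPM (unsorted) in enterochromaffin-like and 25.4 (positive), 28.9 (negative) and 25.4 CPM (unsorted) in alpha-like cells. Neither gene passed 1.5-fold in all 3 libraries in any pair of classes.

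**Figure D3:**
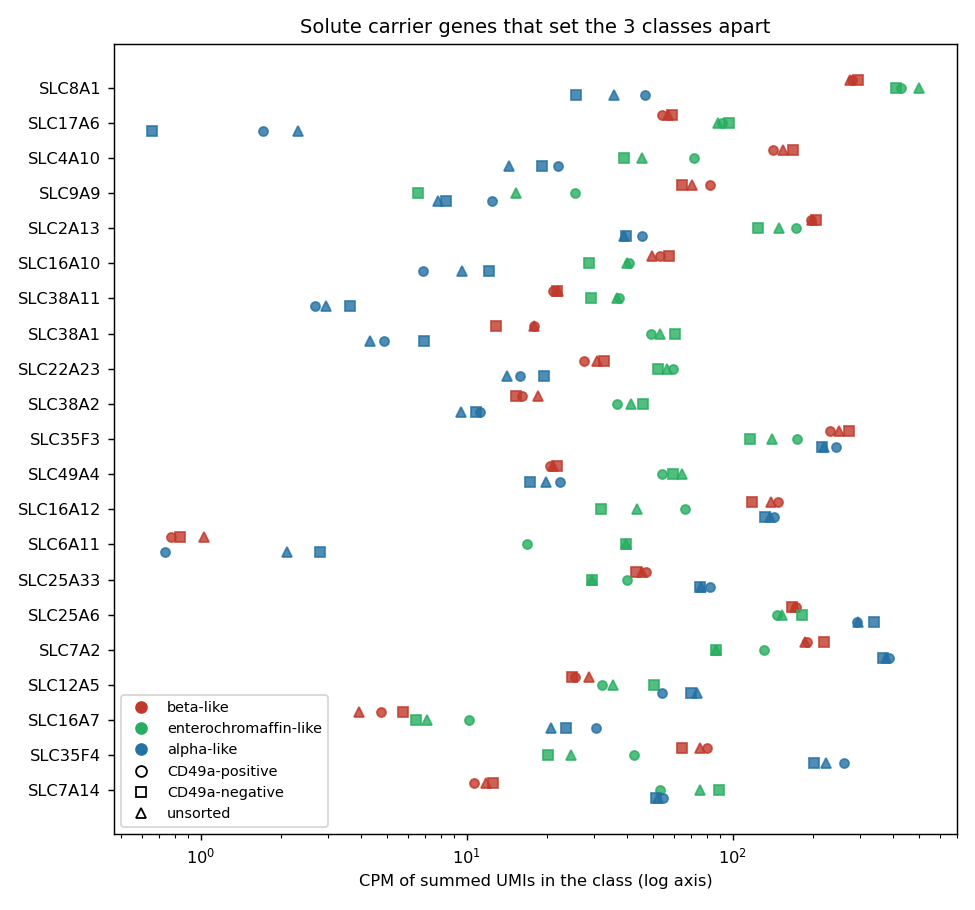
CPM in each class (horizontal, log axis) for members that separate the classes, with colour for the class and marker shape for the library. SLC17A6 and SLC8A1 lie far lower in alpha-like cells (at most 2.33 and 46.7 CPM) than in the others, and SLC6A11 far higher in enterochromaffin-like cells (at least 16.9 CPM).

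Over all members, beta-like cells had the highest level in all 3 libraries for 31 genes (18.5%; 10.4% of all genes), enterochromaffin-like cells for 45 (26.8%; 28.4%) and alpha-like cells for 36 (21.4%; 21.1%). The class with the highest level differed between libraries for the other 56 (33.3%; 40% of all genes). No test of these shares was made.

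The class levels in the unsorted library and the difference between the sorted libraries ran in parallel. For each member, the log2 ratio of beta-like cells over the mean of enterochromaffin-like and alpha-like cells was taken from UMIs of the unsorted library alone. The classes themselves came from a clustering of all 3 libraries together, so the ratio is not fully independent of the sorted ones. All 6 members that were higher in the positive library had a ratio above 0 there (0.78 to 2.04), and all 3 that were lower had one below 0 (-1.76 to -0.73). Spearman's rho across the 168 genes was 0.83, and 0.82 across all 10525 genes. The genes share the libraries and are not independent, so this is a description. Beta-like cells made up 57.1% of the positive and 15.6% of the negative library, and the part of these shares in each gene's difference was not tested.

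**Figure D4:**
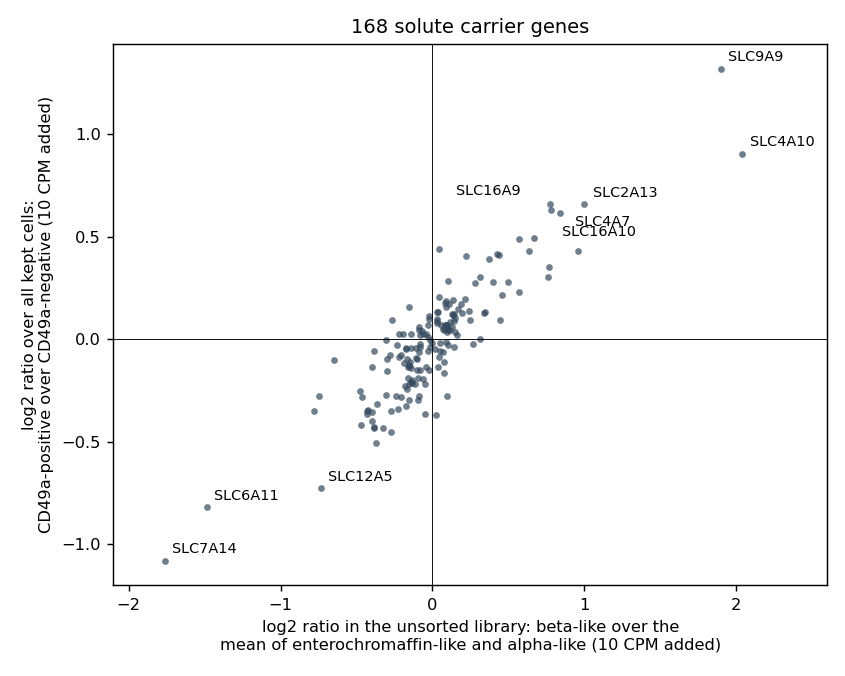
Log2 ratio of beta-like cells over the mean of enterochromaffin-like and alpha-like cells in the unsorted library (horizontal) against the log2 ratio of the positive over the negative library over all kept cells (vertical), 10 CPM added, 1 point per member. SLC9A9 and SLC4A10 lie at the upper right and SLC7A14 and SLC6A11 at the lower left, with a Spearman's rho of 0.83 over 168 genes.

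Gene span moved with the difference as well. Across the 168 members, the log2 ratio of the positive over the negative library correlated with the span from gene start to end at a Spearman's rho of 0.41 over all cells, 0.49 in enterochromaffin-like and 0.50 in alpha-like cells, and -0.10 in beta-like cells. Across all genes with a position the values over all cells and in beta-like cells were 0.50 and -0.17. Members up to 28.7 kb long had a median log2 ratio of -0.11, and those over 66.1 kb one of 0.05. SLC9A9 and SLC4A10 span 583 and 561 kb, but SLC24A3, at 510.3 kb, stood at -0.37. The part of gene span in the differences was not tested.

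**Figure D5:**
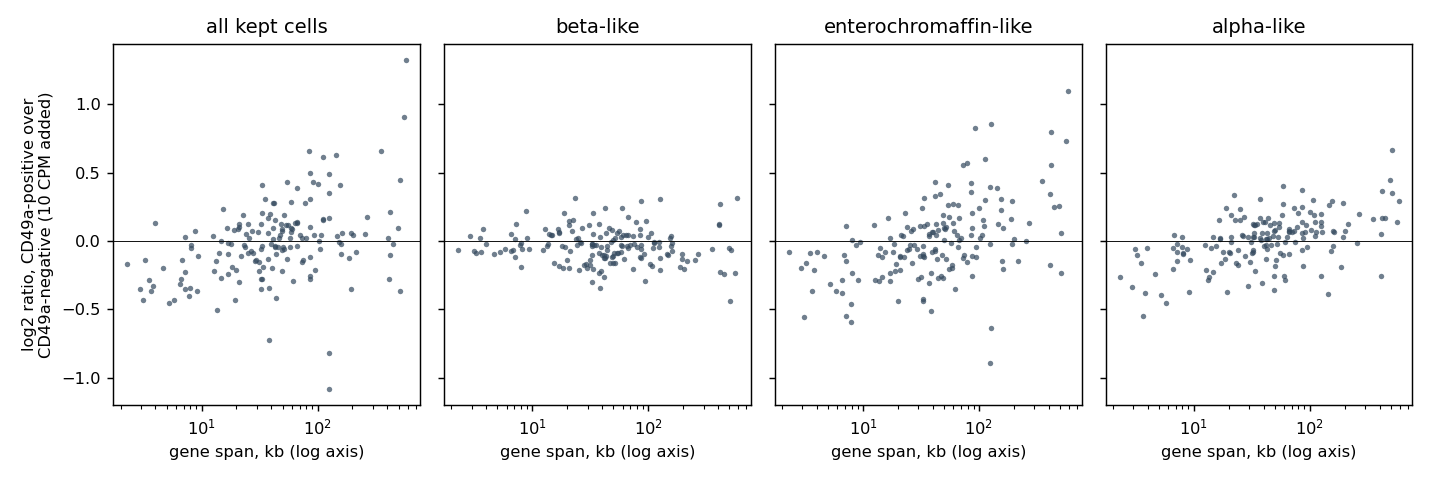
Gene span in kb (horizontal, log axis) against the log2 ratio between the sorted libraries (positive over negative, 10 CPM added, vertical), 1 point per member, over all kept cells or within each of the 3 classes. Points rise to the right except in beta-like cells, with a Spearman's rho of 0.41, -0.10, 0.49 and 0.50 from the left panel to the right.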

How the data were processed

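The authors deposited for each of 3 libraries a matrix of UMI counts (whole numbers, genes by barcodes), made with Cell Ranger 7.1.0 on GRCh38, per the submitters' processing notes. Each table held 36601 genes. Library totals were 127119509 (CD49a-positive), 88397368 (CD49a-negative) and 114479071 (unsorted) UMIs. Groups followed the sorting labels.

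A barcode was kept if it had 1000 or more genes and no more than 20% of its UMIs from mitochondrial genes. Doublets were not removed: Scrublet marked 0, 0 and 8 of the kept cells, too few to have worked. For clustering, each cell was scaled to a total of 10000 UMIs and the log taken. Solute carrier genes were left out of the 2000 variable genes, and Leiden clusters (resolution 1, seed 0) were found on 20 neighbours in 30 principal components. Clusters were named from marker lists by a rule set with the clusters of an earlier analysis known. It asked for at least 3 markers 1.5-fold above other cells and a lead of 0.5 log2 over the next class. A cluster stayed unnamed where another list held as many or more of its 10 leading genes, given at least 1. A cluster with few UMIs also needed a marker of its class among these genes. With at least 5 proliferation markers above other cells, a cluster was named proliferating. UMIs were summed per library and class and given as CPM. Log2 ratios had 10 CPM added. Poisson intervals cover counting error only. No test was made, because each group had 1 library. Gene positions came from GENCODE 29 (168 of 168 members matched), which may not be the release behind the counts, and levels were not compared between genes.

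The members, gene lists and rules were chosen with earlier results of these data known. Named were the 15 members with the highest mean CPM, the 10 highest and 10 lowest ratios between the sorted libraries with at least 50 UMIs, the first of each role group, the 8 highest and lowest per class pair, the 3 highest and lowest within each class, and some by name, and the text gives those the results turn on. Members just inside or outside the minimum, and further members that illustrate a role group, were chosen after their values were seen. Alternatives were other added CPM, scalings, filters, clusterings and depth. Counts over 10525 genes were simulated with counting error only, and only genes with at least 50 CPM in the CD49a-negative library were changed. Of these, the 1.5-fold rule called 100% of 2-fold changed genes over all cells and in beta-like cells, 98.5% in enterochromaffin-like and 95.8% in alpha-like cells. It called 0% of genes changed 1.25-fold. Genes under 50 CPM, whose changes the rule understates, were not changed, so these shares do not cover them. The work used Python 3.11.15, matplotlib 3.10.9, leidenalg 0.10.2, igraph 0.11.9, scanpy 1.11.5, anndata 0.12.19, scikit-learn 1.9.0, scipy 1.17.1, numpy 2.4.6 and pandas 2.3.3.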

Additional observations from a re-analysis of the deposited data

Results flagged for a closer look

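Some members pointed in opposite directions in different classes, by at least 1.5-fold in the difference of their log2 ratios (positive over negative library), with counting intervals on opposite sides of no difference. With 1 library per group these differences were not tested. Between beta-like and enterochromaffin-like cells, SLC4A10 had ratios of -0.24 and 0.73 (a difference of -0.97), SLC35F3, a family 35 member, -0.23 and 0.56 (-0.78), and SLC7A2 -0.21 and 0.55 (-0.76). SLC6A4 had -0.26 and 0.43 (-0.70), and SLC20A2, a phosphate transporter, -0.21 and 0.40 (-0.61). Between beta-like and alpha-like cells, SLC24A3 had -0.44 and 0.35 (-0.79) and SLC8A1 -0.07 and 0.67 (-0.74). Between enterochromaffin-like and alpha-like cells, SLC16A10 had 0.39 and -0.39 (0.78), SLC7A6, an amino acid exchanger, -0.31 and 0.31 (-0.62), and SLC24A3 -0.23 and 0.35 (-0.59).

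Barcodes outside the filter numbered 2118 (positive), 590 (negative) and 555 (unsorted), with 28.7% (positive), 38.4% (negative) and 34.9% (unsorted) mitochondrial UMIs. Apart from the wider cell filter, which took in some of them, no comparison above used these barcodes. Over them, 4 members (2.38%) passed 1.5-fold with intervals apart (positive over unsorted), against 4.32% of all genes. SLC9A9 stood at 42.3 (positive) and 16.9 CPM (unsorted) (log2 ratio 0.96), SLC25A6 at 224 (positive) and 124 CPM (unsorted) (0.81), SLC4A10 at 63.8 (positive) and 36.6 CPM (unsorted) (0.66) and SLC25A5 at 284 (positive) and 176 CPM (unsorted) (0.66). In the negative library 1 member was higher than in the unsorted one (0.595%), against 0.266% of all genes, SLC35F4, at 85.7 (negative) and 52.8 CPM (unsorted) (0.61).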

How the results depend on the processing

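No paired analysis was possible because each group had 1 library and the labels carry no replicate numbers. Of 182 counts of members under alternatives, 134 stayed within 1.5 times the reported count and 48 did not. Of 73 medians, 62 stayed and 11 moved. Of 739 values of named members, 737 kept their sign, but of 481 past 1.5-fold as reported, 411 stayed past it. These totals include settings that could not turn a sign. Other added CPM cannot turn one, and another minimum level leaves each value as it was. The 737 therefore overstate how far the signs were put to a trial. Settings that kept the counts given here were the stricter filter (2000 genes, 10% mitochondrial), leaving out the top 5% of Scrublet scores, no filter on low genes, and scaling without hormone, mitochondrial and ribosomal protein genes. Of these, dropping the filter on low genes changes no member's value and can only add genes under 10 CPM. Scrublet marked too few cells to have worked, so leaving out its top scores need not remove doublets. The cause of each move below was not tested.

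With 1 CPM added, lower members over all cells (positive over negative) numbered 5, higher ones in beta-like cells 1, higher and lower ones in enterochromaffin-like cells 11 and 9, and in alpha-like cells 4 and 4. Beta-like over enterochromaffin-like cells gave 9 lower and enterochromaffin-like over alpha-like cells 13 lower. With 50 CPM added, 2 members were higher and 0 lower over all cells (positive over negative), 0 and 0 for positive over unsorted, 0 lower for negative over unsorted, 0 and 0 in enterochromaffin-like and 0 higher in alpha-like cells. Between classes it gave 1 lower for beta-like over enterochromaffin-like, 9 higher and 4 lower for beta-like over alpha-like, and 7 higher and 4 lower for enterochromaffin-like over alpha-like cells. The beta-like median was -0.019.

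With each cell weighted equally, 2 members were higher for positive over negative and 2 for positive over unsorted, 0 lower for negative over unsorted, 1 lower in enterochromaffin-like and 0 higher in alpha-like cells. The medians were -0.081 (positive over negative), -0.031 (positive over unsorted) and 0.038 (negative over unsorted). With each cell thinned to 10000 UMIs, which left out 330 positive, 144 negative and 180 unsorted cells, 2 members were higher for positive over unsorted, 0 lower for negative over unsorted, 2 lower in beta-like cells, and 2 higher and 7 lower in alpha-like cells. Median-of-ratios scaling gave medians of 0.026 (positive over unsorted), -0.013 (negative over unsorted) and -0.00896 (beta-like, positive over negative). It moved the median of all genes between the sorted libraries to 0.019, against -0.029. A minimum of 50 CPM gave medians of 0.070 (positive over negative), 0.039 (positive over unsorted) and -0.044 (negative over unsorted), and 1 lower for positive over unsorted.

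The alpha-like result did not hold across settings: SLC8A1 was counted as higher in the reported setting, but 0 members were at Leiden resolution 2, with solute carriers in the clustering, and with 500 genes and 30% mitochondrial UMIs, each of which gave 1 lower, and 2 were higher at resolution 0.5. In enterochromaffin-like cells 3 were higher at resolution 0.5, 5 lower with the wider filter and 1 lower with solute carriers in the clustering. At resolution 0.5 enterochromaffin-like over alpha-like cells gave 11 higher, and with solute carriers in the clustering beta-like over enterochromaffin-like cells gave 11 lower. Added after seeing the data were clusters of a class weighted equally (0 lower in enterochromaffin-like cells, where SLC6A11 turned to a log2 ratio of 0.049) and the largest cluster alone (1 higher and 1 lower in enterochromaffin-like cells, 1 higher and a median of -0.0057 in beta-like cells). Depth limits values inside the classes: SLC9A9 rested on 98 UMIs in negative enterochromaffin-like cells.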
